A study of Mus musculus with 2 samples.

Results

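A set of 10 genes of glucose uptake and glycolysis was followed in mouse cells with and without Dicer. They were Slc2a1, Hk1, Hk2, Pfkl, Pfkp, Aldoa, Pgk1, Eno1, Pkm2 and Ldha, chosen by exact match of these symbols among the 23227 symbols of the authors' deposited table. All 10 were listed, and 9 of them passed the minimum of 20 normalised reads that left 11710 genes to be tested. Both groups were immortalised monoclonal lines of murine mesenchymal stem cells, which the labels also call fibroblasts. The wild type (WT) line carried floxed, intact alleles (Dicer f/f) and the knockout (KO) line was Dicer -/-. Both grew in Alpha-MEM with fetal bovine serum and antibiotics and were lysed below confluence, and their polyA RNA was sequenced as paired reads. Each genotype is 1 clone, so a difference between clones and an effect of Dicer cannot be told apart.

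Glycolysis turns glucose into pyruvate in the cytosol and yields ATP and NADH, and lactate dehydrogenase can then reduce pyruvate to lactate and return NAD+ to the pathway. Glucose enters through facilitative transporters, hexokinase traps it as glucose 6-phosphate, and phosphofructokinase makes the committed step to fructose 1,6-bisphosphate. These early steps and pyruvate kinase are the regulated ones, and most are served by several isoenzymes from separate genes. Dicer, an RNase III enzyme, cuts microRNA precursors into the mature microRNAs that repress messenger RNAs, and the study asked which mature messenger RNAs change when it is missing.

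The labels give 1 sample per genotype, but the deposited means resolved into whole reads of 2 libraries for each genotype, called the deeper and the shallower library after their totals. Totals were between 14135422 and 15718369 reads. Values below are reads divided by the authors' size factors (normalised reads), and the spread given is that of both libraries. How the libraries relate is not stated, so p-values measure only the spread between them, which may be technical. Dicer1 itself was listed at 804 and 943 normalised reads in WT and 573 and 557 in KO, a ratio of 0.647 (adjusted p = 0.497 per the authors' deposited table), and reads outside a deleted part would not report a deletion. Of 10 mesenchymal stem cell markers, 9 were tested, and Thy1 had no reads. By the authors' adjusted p below 0.1, 1 of the 9 (Vcam1) was higher in KO, where 5.56% of all tested genes were. Of 7 fibroblast markers, 5 were tested, and Col1a1 and Col1a2 were lower by the same rule, where 5.34% of all tested genes were. Markers of other cell types stayed low, with 7 haematopoietic markers summing to between 145 and 222 normalised reads (Cd3e at 0), 5 endothelial markers to between 11.2 and 18.9, and 5 epithelial markers to between 3.68 and 33.7 (Epcam at 0).

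Slc2a1, Hk2 and Pfkp, which act at glucose entry, glucose phosphorylation and the committed step, rose in KO, by 2.15, 2.24 and 4.39 times. The other 6 tested genes had ratios between 0.729 and 1.24, and none of them was called. By the authors' adjusted p at a threshold of 0.1, 3 of the 9 tested genes were higher in KO, where 5.56% of all tested genes were, and 0 were lower, where 5.34% of all tested genes were. A rule of size, a ratio of at least 2 or at most 0.5 with a 95% counting interval that excludes 1, called the same 3 genes, against 8.92% of all tested genes higher and 8.56% lower. A limma fit to the libraries, with adjusted p below 0.05, called Pfkp alone higher and 0 genes lower, against backgrounds of 3.55% and 3.65%. At an unadjusted limma p below 0.05 the 3 genes were higher and 0 were lower, against 13.6% and 13.4% of all tested genes. The median log2 ratio of the 9 genes was 0.29, and that of all tested genes was -0.01.

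**Figure D1:**
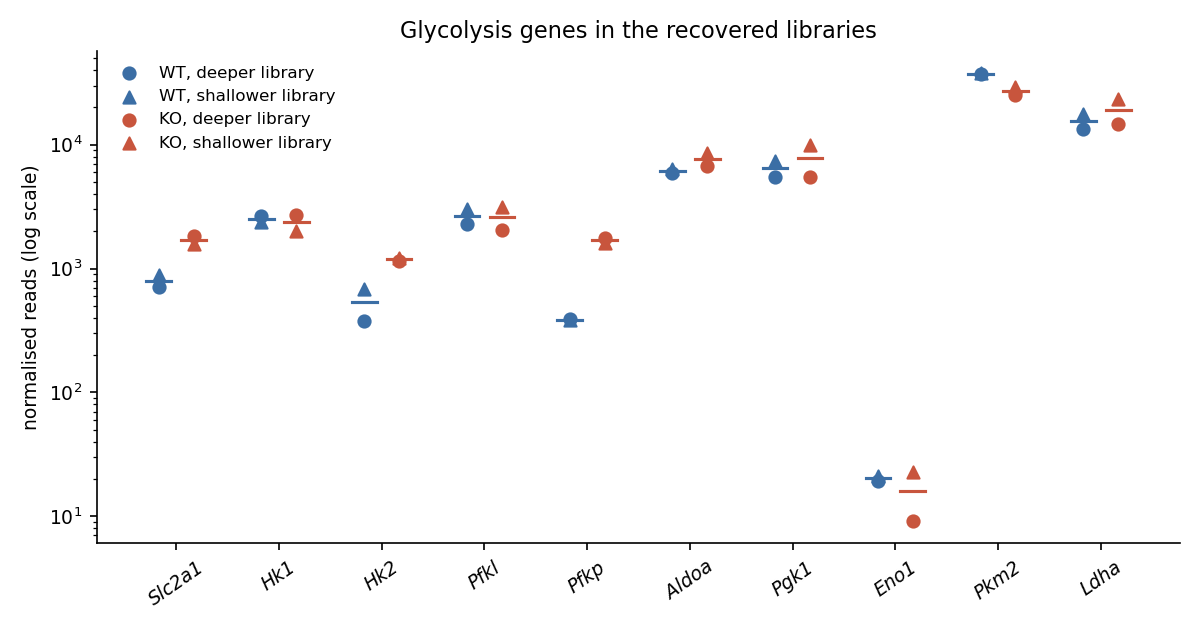
Normalised reads (log axis) of the 10 genes in each of the 4 recovered libraries, in pathway order, with short bars for the mean of each genotype. Both KO points lie above both WT points for Slc2a1, Hk2, Pfkp and Aldoa, and below them for Pkm2.

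For 4 of the 9 genes each KO value exceeded each WT value (Slc2a1, Hk2, Pfkp and Aldoa), where 30.4% of all tested genes did so. The reverse held for 1 gene (Pkm2), where 28.8% of all tested genes did so. For Hk1, Pfkl, Pgk1 and Ldha the values of the genotypes overlapped. All 10 genes together held 68283 and 76655 normalised reads in the WT libraries and 61981 and 80607 in the KO libraries, a ratio of 0.984. Pkm2 and Ldha made up most of that sum in every library.

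Slc2a1 encodes GLUT1, the basal glucose transporter of most cell types. Slc2a1 stood at 708 and 890.1 normalised reads in the deeper and shallower WT libraries and at 1848 and 1584 in the KO libraries. Both KO values lay well above both WT values. The ratio of means was 2.15 (95% counting interval 2.02 to 2.28), at adjusted p = 0.0324 per the authors' deposited table. In the limma fit the log2 difference was 1.11 ± 0.22 (SE) with an adjusted p of 0.0664, so the gene was not called. A replicate block by depth rank gave a limma adjusted p of 0.0412. That rank was read from these data, and the block raised the genes called higher from 416 to 1288. Leaving out the deeper WT library gave a ratio of 1.93 and leaving out the deeper KO library 1.98, both short of 2.

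Hexokinase phosphorylates glucose at its first step inside the cell, with Hk1 the broadly expressed form and Hk2 the form that is inducible and abundant in muscle, fat and tumours. Hk1 stood at 2675 and 2367 normalised reads in WT and at 2699.7 and 2017 in KO, a ratio of 0.936 (interval 0.899 to 0.973). Its values overlapped, with adjusted p = 1 per the authors' deposited table and 0.802 in limma. Hk2 stood at 376 and 689 normalised reads in WT and at 1158 and 1226 in KO. Both KO values lay above WT, and the WT libraries differed from each other by 1.83 times. The ratio of means was 2.24 (interval 2.08 to 2.41), at adjusted p = 0.0217 per the authors' deposited table. The limma log2 difference was 1.23 ± 0.35 (SE), adjusted p = 0.123, and 0.0507 with the block by depth rank. Leaving out the deeper WT library lowered the Hk2 ratio to 1.73, and leaving out the shallower WT library raised it to 3.17.

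Phosphofructokinase is the main control point of glycolysis, with a liver-type subunit from Pfkl, a platelet-type subunit from Pfkp and a muscle-type subunit from Pfkm. Pfkl stood at 2277 and 3026 normalised reads in WT and at 2034 and 3137 in KO, with overlapping values and a ratio of 0.975 (interval 0.938 to 1.01). It was not called, at adjusted p = 1 (authors' deposited table) and 0.931 (limma). Pfkp stood at 390.4 and 381 normalised reads in WT and at 1775 and 1611 in KO. Of the 10 genes it had the largest ratio, and the libraries of each genotype lay close together. The Pfkp ratio was 4.39 (interval 4.05 to 4.76), at adjusted p = 9.22e-07 per the authors' deposited table. The limma log2 difference was 2.13 ± 0.18 (SE) with an adjusted p of 0.0125. Without 1 library at a time the Pfkp ratio was between 4.18 and 4.60. The limma call of Pfkp was lost without either KO library, with an adjusted p of up to 0.0903, in fits that called 0 genes of any kind.

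The next steps split fructose 1,6-bisphosphate and make the first ATP. Aldoa encodes the main aldolase outside liver and brain, and Pgk1 encodes phosphoglycerate kinase, which makes ATP from 1,3-bisphosphoglycerate. Aldoa stood at 5915 and 6406 normalised reads in WT and at 6752 and 8489 in KO, a ratio of 1.24 (interval 1.21 to 1.27). The KO values lay above the WT values, but the gene was not called, with adjusted p = 0.944 per the authors' deposited table and 0.421 in limma. Pgk1 stood at 5509.8 and 7405 normalised reads in WT and at 5502 and 10005 in KO, a ratio of 1.20 (interval 1.17 to 1.23). The KO libraries lay on both sides of the WT range. Adjusted p was 1 per the authors' deposited table and 0.751 in limma, and the ratio ran from 0.852 to 1.55 with 1 library left out.

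Pkm2 is the older symbol of Pkm, the gene whose mutually exclusive exons give pyruvate kinase M1 or M2, and a gene total cannot tell these forms apart. Pkm2 stood at 36925 and 37815 normalised reads in WT and at 25397 and 29121 in KO. It was the most abundant of the 10 genes and the only one with both KO values below both WT values. The ratio was 0.729 (interval 0.721 to 0.738), short of the size rule, with adjusted p = 0.695 per the authors' deposited table and 0.210 in limma. Of 6 splicing factors known to act on these exons (Ptbp1, Ptbp2, Hnrnpa1, Hnrnpa2b1, Srsf3 and Rbm4), all were tested. By the authors' adjusted p 0 of these factors were called, where 5.56% of all tested genes were higher and 5.34% lower. Their median log2 ratio was -0.14.

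Ldha encodes the lactate dehydrogenase subunit that favours lactate production. Ldha stood at 13487 and 17655 normalised reads in WT and at 14805 and 23394 in KO, a ratio of 1.23 (interval 1.21 to 1.25). The genotypes overlapped, since the deeper KO library lay between both WT libraries. Adjusted p was 1 per the authors' deposited table and 0.629 in limma, and the ratio ran from 0.951 to 1.5 with 1 library left out.

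Eno1 encodes alpha-enolase, an enzyme of high abundance in dividing cells, yet its row held only 72 reads in all. Eno1 stood at 19.3 and 21.3 normalised reads in WT and at 9.20 and 22.9 in KO, a ratio of 0.791 whose interval of 0.482 to 1.29 includes 1. With so few reads no difference of that size was detectable in this row, and it was below the minimum for testing. A separate row, Gm5506, held 13753 and 19779 normalised reads in WT and 13085 and 22301 in KO. RefSeq now lists Gm5506 as Eno1b, an enolase gene that has Eno1 among its synonyms. Of the 50-base windows in the Eno1 transcript, 70.5% also occur in the Eno1b transcript, so reads could be given to either row. The Eno1 row made up 0.121% of both rows' sum in WT and 0.0906% in KO. The sum of both rows was 16787 normalised reads in WT and 17709 in KO, a ratio of 1.05, and the genotypes overlapped.

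Such shared sequence was measured for each gene, because reads from near-identical copies can be split between rows. No 50-base window of the Slc2a1, Hk1, Hk2 or Pfkp transcript occurs in a transcript of another gene, and in Pfkl 2 of 3681 windows do. The share was 13.5% for Aldoa, 16.6% for Ldha, 34.4% for Pkm2, 68.0% for Pgk1 and 72.2% for Eno1. For Pgk1, 67.9% of windows occur in the retrogene Pgk1-rs7. Among other genes of the pathway it was 82.5% for Gapdh, 41.5% for Pgam1, 27.0% for Ldhb, 19.3% for Gpi1 and 7.51% for Tpi1. No window of Pfkm, Eno3, Aldoc or Slc2a3 was shared. Values of Pgk1, Eno1 and Pkm2 are therefore less certain than those of Slc2a1, Hk1, Hk2, Pfkl and Pfkp, called or not. How reads of shared sequence were counted is not stated.

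**Figure D2:**
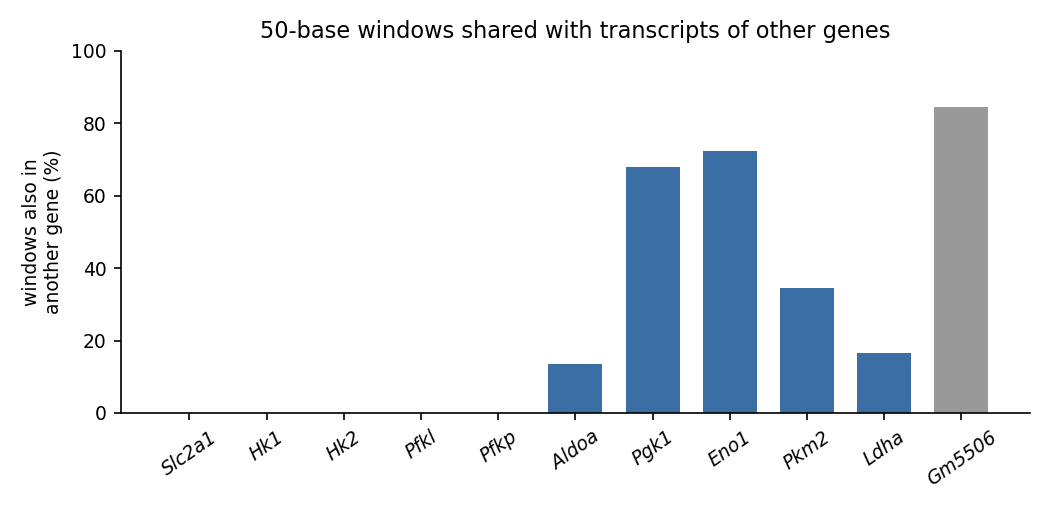
Percent of 50-base windows in the transcript of each gene that also occur in a transcript of another gene (GENCODE release M21); the grey bar is Gm5506. The bars of Slc2a1, Hk1, Hk2 and Pfkp are at 0 and Eno1 and Pgk1 are near 70%.

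Levels were compared between genes per kilobase of transcript. In WT the order was Pkm2 (15366 normalised reads per kb), Ldha (8579), Aldoa (3977), Pgk1 (3538), Pfkl (711), Hk1 (589), Slc2a1 (245), Hk2 (96.6), Pfkp (93.1) and Eno1 (10.0). The WT libraries of Aldoa and Pgk1 overlapped, as did those of Pfkl and Hk1 and those of Hk2 and Pfkp. In KO the order was Pkm2 (11209), Ldha (10523), Aldoa (4919.8), Pgk1 (4249), Pfkl (693), Hk1 (551), Slc2a1 (526), Pfkp (408), Hk2 (216) and Eno1 (7.91). Here the libraries of Pkm2 and Ldha overlapped, those of Aldoa and Pgk1 overlapped, and those of Slc2a1, Hk1 and Pfkl overlapped. Pkm2, Ldha, Aldoa and Pgk1 thus stood several times above Slc2a1, Hk1, Hk2, Pfkl and Pfkp in both genotypes. The Eno1 row came last, but its place does not rank enolase, since Gm5506 held nearly all reads of the pair. The enolase sum (Eno1, Gm5506, Eno2 and Eno3) was 9536 normalised reads per kb in WT and 10413 in KO.

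Because isoenzymes catalyse the same step, each gene was also read as a share of its family's normalised reads per kb. Hk2 made up 9.83% and 18.4% of Hk1 plus Hk2 in the WT libraries and 25.0% and 32.0% in the KO libraries. Pfkp made up 8.94% and 7.68% of the phosphofructokinase reads in WT and 23.2% and 21.5% in KO, while Pfkl made up 57.9% and 67.8% in WT and 29.6% and 46.6% in KO. Pfkm, the muscle-type subunit, made up 33.1% and 24.5% in WT and 47.2% and 31.9% in KO, so its genotypes overlapped. The phosphofructokinase sum was 1125 normalised reads per kb in WT and 1825 in KO, a ratio of 1.62, and the hexokinase sum had a ratio of 1.12. On the log2 scale the difference between genotypes was 1.34 for Hk2 over Hk1 and 2.19 for Pfkp over Pfkl, and the genotypes did not overlap in either. A two-sided exact permutation test gave p = 0.333 for each, the smallest that 2 libraries against 2 allow.

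**Figure D3:**
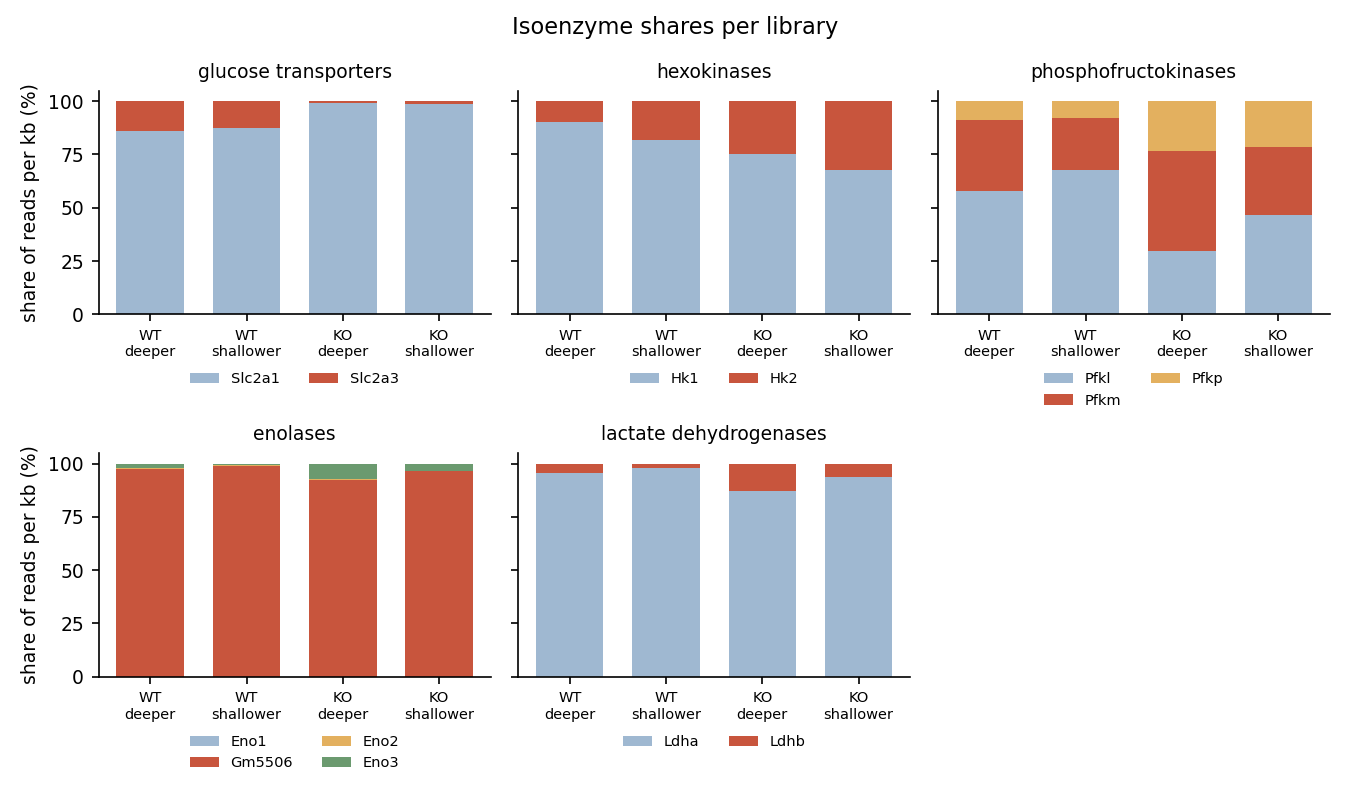
Share of each isoenzyme in its family's normalised reads per kb (%), for 5 families, as stacked bars for the 4 recovered libraries. The Hk2 and Pfkp segments are taller in both KO libraries than in both WT libraries, and Pfkl is shorter.

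Slc2a1 made up 86.9% of Slc2a1 plus Slc2a3 reads per kb in WT and 99.0% in KO. Slc2a3, the neuronal-type transporter GLUT3, stood at 138 and 154 normalised reads in WT and 14.7 and 28.9 in KO, and fell by 6.69-fold. The authors' deposited table gave adjusted p = 4.1e-05 and limma 0.0313. The 2 transporters moved in opposite directions, and their sum per kb had a ratio of 1.89. Among lactate dehydrogenases, Ldhb, the subunit typical of heart, went from 3.07% of reads per kb in WT to 8.95% in KO, and Ldhb over Ldha differed by 1.71 on the log2 scale (two-sided exact permutation p = 0.333, the smallest possible). The sum of Ldha and Ldhb per kb had a ratio of 1.31.

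The remaining glycolytic enzymes and isoforms comprised 20 listed genes, of which 14 were tested. By the authors' adjusted p, 3 were higher in KO and 0 lower, beside 5.56% and 5.34% of all tested genes. The median log2 ratio of the 14 was 0.33. The 3 higher genes were Pfkm, the muscle enolase Eno3 and Ldhb. Pfkm went from 925 to 2083 normalised reads (adjusted p = 0.0772 per the authors' deposited table). Eno3 went from 206 to 784 (adjusted p = 4.8e-05 per the same table) and Ldhb from 355 to 1349 (adjusted p = 0.00152). Of the 3, limma called Eno3 alone (adjusted p = 0.0424), with 0.0973 for Pfkm and 0.0710 for Ldhb. Without the deeper KO library the Pfkm ratio of 2.25 was 1.79. Pgam2, the muscle-type phosphoglycerate mutase, stood at 31.8 and 23.5 normalised reads in WT and at 12.9 and 16.9 in KO, a ratio of 0.538, and was not called. Aldoc, the brain-type aldolase, passed the size rule and limma (adjusted p = 0.0499) but not the authors' rule (adjusted p = 0.244 per the authors' deposited table). The size rule called 8.92% of all tested genes higher and limma 3.55%. It stood at 11.6 and 7.85 normalised reads in WT and at 740.5 and 146 in KO, and its ratio of 45.7 became 15.1 when the deeper KO library was left out and 76.3 when the other one was. The enzymes that have 1 dominant form were not called, with ratios of 1.24 for Gpi1, 1.37 for Tpi1, 1.28 for Gapdh and 1.02 for Pgam1.

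**Figure D4:**
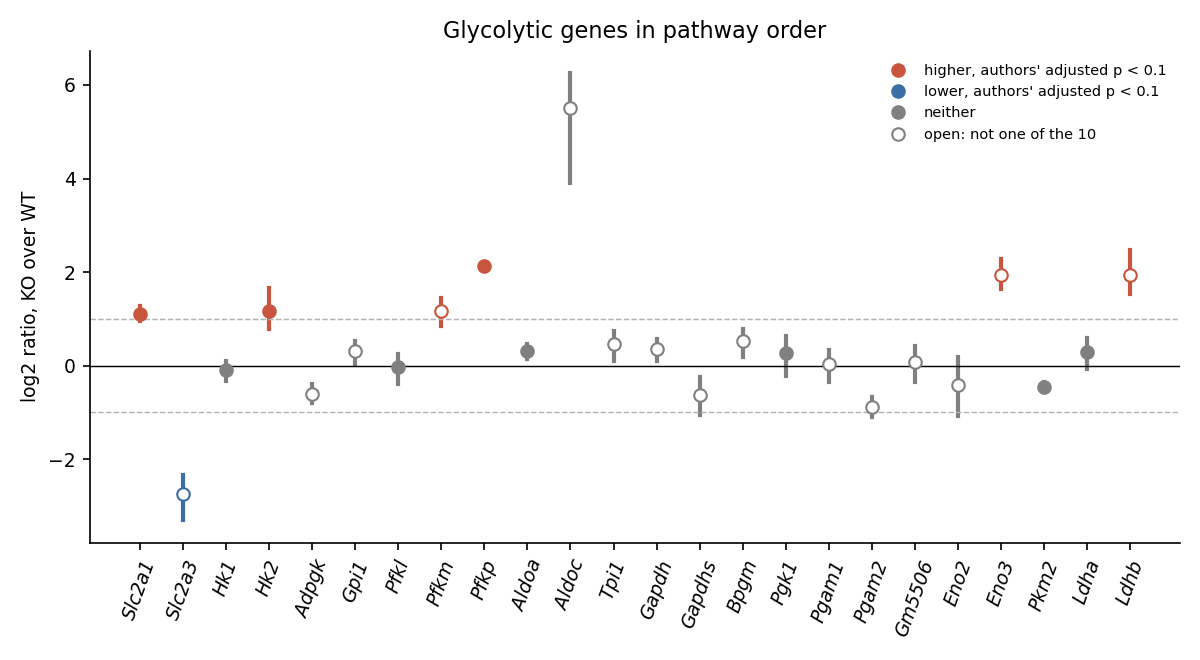
Log2 ratio of KO over WT for tested genes of the pathway in order of their steps; filled points are genes of the 10 and open points are the others. Vertical lines give the range with 1 library left out, dashed lines mark a log2 ratio of 1 and -1, and colour marks the call by the authors' adjusted p. Slc2a1, Hk2, Pfkm, Pfkp, Eno3 and Ldhb are coloured as higher and Slc2a3 as lower.

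Of the 9 tested genes, 6 (Hk2, Pfkl, Aldoa, Pgk1, Pkm2 and Ldha) were higher in the shallower library of both genotypes, where 35.4% of all tested genes were. The value in the shallower library divided by that in the deeper one was 1.34 in WT and 1.82 in KO for Pgk1, 1.31 and 1.58 for Ldha, and 1.33 and 1.54 for Pfkl. Of the 14 tested other enzymes 5 were, among them Gpi1, Tpi1, Gapdh and Pgam1, and the other 9 were not. Gm5506 also was, at 1.44 and 1.70. For Pfkp the values were 0.976 and 0.908, and for Hk1 0.885 and 0.747. For Pgk1, Ldha and Pfkl the libraries of each genotype thus differed by more than the genotype means did, and for Pfkp by far less. What distinguishes the libraries is not stated, and its part in these values was not tested.

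**Figure D5:**
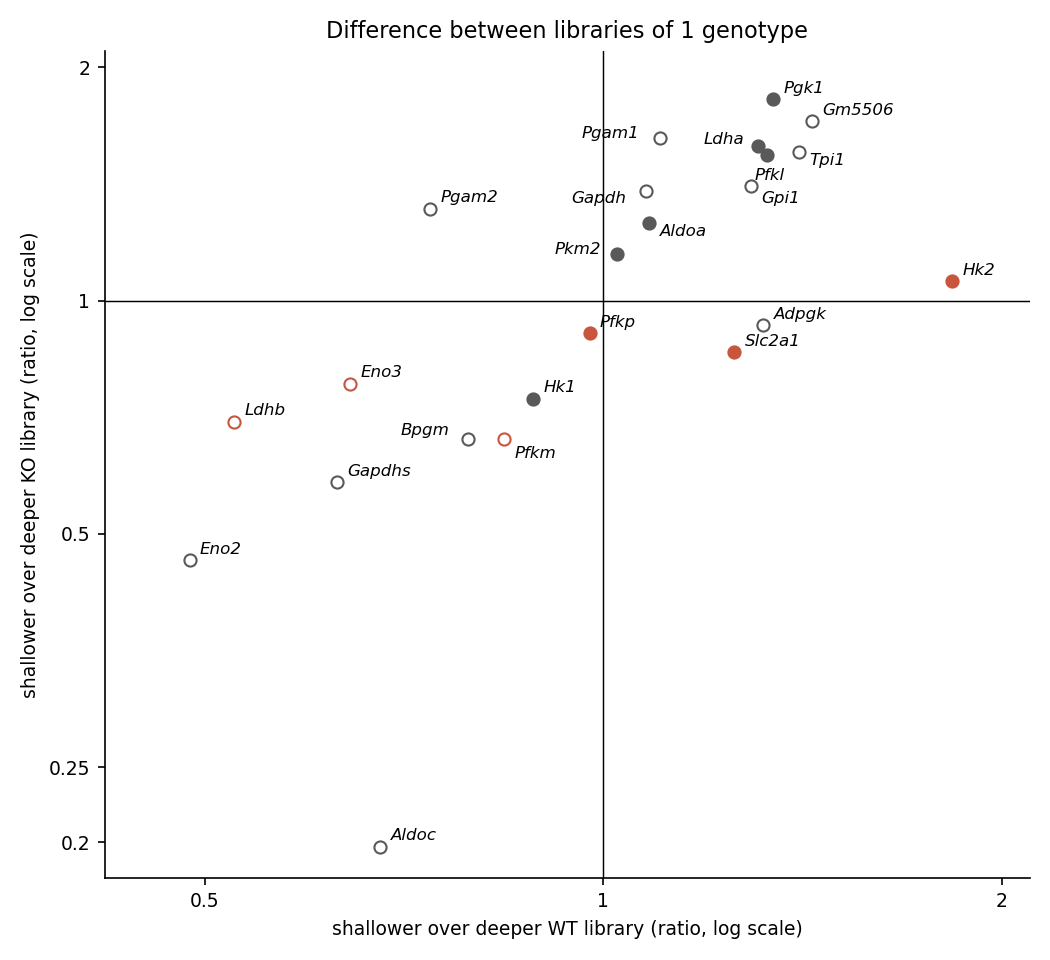
Value in the shallower library divided by that in the deeper one, in WT (horizontal) and in KO (vertical), both on log axes; filled points are genes of the 10, open points other tested enzymes, and red marks genes higher in KO by the authors' adjusted p. Of the 23 genes plotted, 11 lie in the upper right and 9 in the lower left, and Pfkp lies near 1 on both axes.

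Genes that supply, regulate or drain the pathway were counted by the authors' adjusted p, which called 5.56% of all tested genes higher and 5.34% lower. None of the 5 tested enzymes that set fructose 2,6-bisphosphate, the activator of phosphofructokinase, was called; Pfkfb3 stood at 607 normalised reads in WT and 1033 in KO (adjusted p = 0.268 per the authors' deposited table). Of 8 tested glucose and lactate transporters other than Slc2a1, Slc2a3 alone was called. The lactate exporter Slc16a3 had a ratio of 2.00 with overlapping libraries, which became 0.913 when the shallower KO library was left out and 3.08 when the deeper one was. Leaving out the shallower WT library gave 3.0. Slc16a1, a transporter of lactate and pyruvate, had a ratio of 1.30. Of 14 tested genes of mitochondrial pyruvate entry, 1 was higher and 1 lower. Dld, the shared dihydrolipoamide dehydrogenase subunit, rose from 1426 to 3645 normalised reads, and Pdk1, a kinase that inhibits pyruvate dehydrogenase, fell from 219 to 83.2. The authors' deposited table gave adjusted p = 0.00364 for Dld and 0.0918 for Pdk1. Limma called Dld (adjusted p = 0.0302) but not Pdk1 (adjusted p = 0.216). The Pdk1 ratio of 0.379 became 0.599 when the deeper KO library was left out and 0.159 when the other one was.

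In the side branches, 0 of 8 tested pentose phosphate genes and 0 of 5 tested gluconeogenic genes were called. Of 8 tested genes of the serine, glycerol and polyol branches 1 was higher, Phgdh, the first enzyme of serine synthesis. It went from 6426 to 12559 normalised reads (adjusted p = 0.0835 per the authors' deposited table). Its ratio of 1.95 fell short of the size rule and was 1.60 without the deeper KO library, and limma did not call it (adjusted p = 0.113). Of 9 tested glycogen genes 1 was higher, the branching enzyme Gbe1, from 349.8 to 877 normalised reads (adjusted p = 0.0101 per the authors' deposited table). Of 10 tested transcription factors and sensors of glucose use 1 was higher, Tfeb, a regulator of lysosomal genes, from 189.9 to 527 normalised reads (adjusted p = 0.00567 per the authors' deposited table). Myc, a known activator of glycolytic genes, had a ratio of 0.610, and Txnip, an inhibitor of glucose uptake, a ratio of 1.53, both not called. Each of these lists had at most 1 call in a direction, beside backgrounds of 5.56% and 5.34%.

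Glycolytic genes are known targets of the hypoxia-inducible factors (HIF), which bind a core of ACGTG or GCGTG. Of 7 tested HIF factors and oxygen sensors 1 was higher by the authors' adjusted p, where 5.56% of all tested genes were. It was Hif1an, which hydroxylates HIF-alpha and blunts its activity. Hif1an stood at 1749.5 and 1695 normalised reads in WT and at 5543 and 5830.3 in KO, a ratio of 3.30 with adjusted p = 6.6e-05 per the authors' deposited table and 0.0179 in limma. Hif1a itself had a ratio of 1.63 (adjusted p = 0.475 per the authors' deposited table). Epas1, another HIF factor, went the other way, with a log2 ratio of -1.66, the lowest of that list. It passed the size rule as lower but not the authors' rule (adjusted p = 0.354 per the authors' deposited table). Its ratio ran from 0.200 to 0.492 with 1 library left out. Of 11 tested genes in a list of HIF targets outside glycolysis, 0 were called by the authors' adjusted p. The size rule called 1 of them higher, where 8.92% of all tested genes were. Their median log2 ratio was 0.11. Pdk1 and Slc2a3, both lower in KO, were counted in other lists and not here. The promoter windows of the 3 genes that rose, from 250 bases before to 50 bases after the RefSeq start on GRCm38.p6, are printed to show their HIF cores, with the first Ldha window beside them because it held the most matches of the 10 genes. Capitals mark ACGTG or GCGTG on either strand (CACGT and CACGC on the printed strand), read 5′ to 3′ along the gene.
Slc2a1, chr4:119108495-119108794, plus strand: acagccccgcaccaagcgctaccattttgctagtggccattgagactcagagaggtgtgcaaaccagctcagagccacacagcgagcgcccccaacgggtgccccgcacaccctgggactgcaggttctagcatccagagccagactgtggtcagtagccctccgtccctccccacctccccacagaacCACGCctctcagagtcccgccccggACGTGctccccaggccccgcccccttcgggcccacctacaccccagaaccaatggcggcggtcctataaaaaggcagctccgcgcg
Hk2, chr6:82774405-82774704, minus strand: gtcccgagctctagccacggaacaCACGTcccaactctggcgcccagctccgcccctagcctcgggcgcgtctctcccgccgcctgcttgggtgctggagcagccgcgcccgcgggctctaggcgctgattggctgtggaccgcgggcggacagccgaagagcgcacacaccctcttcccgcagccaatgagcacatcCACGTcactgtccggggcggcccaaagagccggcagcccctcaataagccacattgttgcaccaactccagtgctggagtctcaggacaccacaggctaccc
Pfkp, chr13:6648722-6649021, minus strand: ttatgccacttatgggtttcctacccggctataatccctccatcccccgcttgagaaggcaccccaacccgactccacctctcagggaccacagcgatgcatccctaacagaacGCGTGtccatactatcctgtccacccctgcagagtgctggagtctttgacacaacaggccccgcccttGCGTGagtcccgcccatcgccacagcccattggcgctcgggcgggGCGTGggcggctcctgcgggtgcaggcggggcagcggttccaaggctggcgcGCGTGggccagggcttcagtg
Ldha, chr7:46845554-46845853, plus strand: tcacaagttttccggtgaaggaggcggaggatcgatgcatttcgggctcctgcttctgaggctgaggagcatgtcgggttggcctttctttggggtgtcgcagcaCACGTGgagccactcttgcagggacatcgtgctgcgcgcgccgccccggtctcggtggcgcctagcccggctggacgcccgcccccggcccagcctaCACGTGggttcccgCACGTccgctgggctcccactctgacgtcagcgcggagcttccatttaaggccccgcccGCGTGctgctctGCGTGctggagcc
Slc2a1 and Hk2 held 2 matches each, Pfkp 4 and Ldha 7. CACGTG holds a match on both strands and was counted as 2. Ldha was not called, and its printed window was picked for having the most matches, while its other window held 2. Whether matches go with a rise was not tested. Each of the 10 genes had a match in at least 1 of its windows, and Hk1, Aldoa, Eno1, Pkm2 and Ldha had several windows to match. Among all promoter windows of tested genes 62.3% held a match, and among those with a GC content of at least 60%, like the 4 printed here, 72.0% did. A match is a description of these letters and not a binding site.

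MicroRNAs pair through bases 2 to 8, their seed, with sites in 3′ untranslated regions (UTRs), so the longest annotated UTR of each gene was searched for the complement of 11 seeds. The seed of miR-16 had its 7-base complement, TGCTGCT, in 5 of the 10 genes, the most of any seed searched, and in 25.4% of the UTRs of tested genes. Its mature sequence, from RefSeq, has the seed in capitals, and the sites from GENCODE release M21 have their complement in capitals.
miR-16-5p: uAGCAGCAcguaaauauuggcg
Slc2a1, site of miR-16: aatgaaagcaagacTGCTGCTca
Hk2, site of miR-16: gctctctctgctaaTGCTGCTtt
Pfkp, site of miR-16: agatggctgtgagcTGCTGCTag
Pfkl, site of miR-16: gtgggggtctactgTGCTGCTct
Pfkl, site of miR-16: tttcttacgtgagcTGCTGCTgg
Aldoa, site of miR-16: tttcccatcactctTGCTGCTgc
Slc2a1, Hk2 and Pfkp rose, while Pfkl, with 2 sites, and Aldoa did not pass. These UTRs were 1537 bases long in Slc2a1, 2285 in Hk2, 1692 in Pfkp, 1263 in Pfkl and 185 in Aldoa. A longer UTR has more room for a match, and the shares of UTRs given here were not matched for length. The complement of the miR-199a-3p seed, ACTACTG, was in Pfkp and Pfkl and in 8.93% of UTRs. That of miR-125, CTCAGGG, was in Hk2 and in 16% of UTRs, and that of the miR-17 family, GCACTTT, in Pfkp and in 15.1%. That of miR-34, CACTGCC, was in Hk1, Aldoa and Ldha, none of which was called, and in 17.8% of UTRs. The let-7, miR-29, miR-21, miR-30, miR-26 and miR-199a-5p seeds had no complement in these UTRs of the 10 genes, and Pgk1, Eno1 and Pkm2 had none for any of the 11 seeds. Whether these microRNAs were present in either line was not measured here.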

How the data were processed

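PolyA RNA of 1 labelled sample per genotype was measured. The authors deposited 1 table of their comparison, read by its symbols because it has no coordinates. TopHat 1.4.0, DESeq 1.10.1 and build mm9 are listed per the submitters' processing notes, in no stated role, with counter and annotation not given in the sources used here. The deposited signal, per the file headers, is the mean normalised read count per gene and condition, the deposited ratio (fold) is condition B over A, the deposited log2 value is its logarithm, and the authors' p-values, raw and adjusted, were copied. The order of names in the title was taken to make WT condition A and KO condition B, and every direction rests on that.

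Each mean was solved into whole reads of 2 libraries, with 1 solution for 100% of genes above 0 at a tolerance of 1e-08 normalised reads; 5924 symbols had no reads. Depth ranged as given above, and 3 reads in a library equal 2.76 to 3.36 normalised reads. Ratios carry 95% exact (Clopper-Pearson) intervals, which cover counting error only. limma 3.58.1 was fitted in R 4.3.3 to log2(normalised reads + 1) of all genes with a mean of at least 20, with Benjamini-Hochberg adjustment, after a test on simulated data. A fold on this scale understates the change of low genes. Levels per kb used the longest GENCODE M21 transcript of a gene on GRCm38, which is not the authors' build; promoters and mature microRNAs came from RefSeq. The 10 genes were named whatever their values. Other genes were named for an enzyme step or for passing a call, and some (Pfkfb3, Pgam2, Slc16a1, Slc16a3, Hif1a, Myc and Txnip) after their values were seen. Members, lists and tests were chosen with earlier results of these data known. A few withheld items are not reported here.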

Additional observations from a re-analysis of the deposited data

How the results depend on the processing

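The log2 ratios of Slc2a1, Hk2, Pfkp, Aldoa and Pkm2 kept their direction with another scaling or 1 library left out. Those of Hk1, Pfkl, Pgk1, Eno1 and Ldha turned in at least 1 recalculation. Without the shallower KO library Hk1 went from -0.096 to 0.099, Pgk1 from 0.264 to -0.231 and Ldha from 0.295 to -0.073. Without the deeper KO library Pfkl went from -0.036 to 0.242 and Eno1 from -0.339 to 0.174. All 60 recalculations moved by less than the spread between libraries. Leaving out 1 of 2 libraries can hardly move a ratio further, so this is not a test of stability. The size rule called 3 of the 10 genes higher, and between 1 and 3 with 1 library left out. Only Pfkp was called without the deeper WT library, and Hk2 and Pfkp without the deeper KO library. limma called 1 of them higher (Pfkp), 2 with a replicate block that pairs libraries by depth rank, 2 with an intensity trend (both times Slc2a1 joined), and between 0 and 1 with 1 library left out. The rank by depth was read from the data and pairs no stated samples. Over all tested genes limma called 416 higher and 427 lower, 1288 and 1333 with the block, and between 0 and 329 higher and between 0 and 308 lower with 1 library left out, in fits with fewer samples that assume the lone library varies like the other genotype. With no expression minimum limma called 234 higher; the cause was not tested. Over tested genes the median log2 ratio came to -0.01 with the authors' scaling, 0.06 with total reads and -0.05 with the upper quartile. With 2 libraries per genotype the smallest exact permutation p is 0.333, and a call rests on the spread pooled across genes. The Eno1 row is limited by its 72 reads, which leave an interval from 0.482 to 1.29. How reads were split between it and Gm5506 is not stated.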

Other observations

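Some genes of glucose production that are typical of liver and kidney were detected in these lines and stood higher in the shallower WT library than in the deeper one; they were chosen after their values were seen. Pck1, which makes phosphoenolpyruvate, stood at 156 and 795 normalised reads in the deeper and shallower WT libraries and at 281 and 219 in the KO libraries. Fbp1, which reverses the phosphofructokinase step, stood at 42.4 and 209 normalised reads in WT and at 79.1 and 110.5 in KO. G6pc, which releases free glucose, stood at 11.6 and 58.3 normalised reads in WT and at 21.2 and 18.9 in KO. In WT the shallower library was 5.09 times the deeper one for Pck1, 4.92 times for Fbp1 and 5.04 times for G6pc, and none of the 3 was called between genotypes.

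Hnrnpa1, an abundant splicing factor in most cells, was listed at 42.4 and 71.8 normalised reads in WT and at 29.4 and 63.7 in KO, and 46.4% of its 50-base windows also occur in transcripts of other genes. The part of that shared sequence in the low value was not tested.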
